A study of Mus musculus with 8 samples.

Results

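The 8 genes described here are Slc5a3, Mrps6, Nfat5, Slc6a6, Slc38a2, Akr1b3, Slc6a12 and Slc12a2, taken by symbol from a table of 19493 endogenous genes. Poly(A) RNA had been sequenced from 4 WT and 4 Dp1Tyb cultures of mouse embryonic fibroblasts (MEFs), cells grown out of the bodies of E14.5 embryos, with ERCC RNA spike-ins (synthetic transcripts) mixed into equal numbers of cells ahead of extraction. The labels name the strain of both groups as C57BL/6J.129P2, the methods add a backcross to C57BL/6JNimr, and the labels list no treatment other than trypsin for passaging. WT embryos carry 2 copies of chromosome 16 in full. Dp1Tyb embryos carry an additional copy, in tandem, of the part of chromosome 16 orthologous to human chromosome 21, bounded by Lipi and Zbtb21 (chr16:75540514-97962622, GRCm38), and so hold 3 copies of its genes. Slc5a3 and Mrps6 are 2 of the 128 genes of that stretch in the table, and the other 6 members lie outside it: Nfat5 (ENSMUSG00000003847) on chromosome 8, Slc38a2 (ENSMUSG00000022462) on 15, Slc12a2 (ENSMUSG00000024597) on 18, and Slc6a6 (ENSMUSG00000030096), Akr1b3 (ENSMUSG00000001642) and Slc6a12 (ENSMUSG00000030109) on 6. Libraries held 17698900 to 26471758 counts, of which 0.88% to 1.65% were spike-ins. The genes were selected on their known roles and with their Dp1Tyb against WT fold changes in view, so that contrast is given for them as a description, with counts of calls but no p-value of a member. Each culture was labelled as a separate sample, and the methods describe MEFs of littermate embryos without tying a library to an embryo or litter.

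Cells in a hypertonic medium lose water and then restore their volume by taking up salt and, more slowly, small uncharged solutes called organic osmolytes. NFAT5 is the transcription factor of this response, and its well known target genes include those for the myo-inositol transporter (Slc5a3), the betaine and GABA transporter (Slc6a12), the taurine transporter (Slc6a6) and aldose reductase, which makes sorbitol (Akr1b3). SLC38A2 takes up neutral amino acids with sodium and is induced both by hypertonicity and by amino acid shortage. SLC12A2 brings sodium, potassium and chloride into the cell. MRPS6 has another role: it is a protein of the small subunit of the mitochondrial ribosome, and it is considered here because its gene contains Slc5a3.

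In the GENCODE M21 annotation (GRCm38), Slc5a3 (ENSMUSG00000089774) occupies chr16:92058322-92087473 and Mrps6 (ENSMUSG00000039680) chr16:92058270-92112227, both on the plus strand. The annotated starts are 52 bases apart, and the genes share 159 bases of first exon (chr16:92058322-92058480). The remaining 10754 exonic bases of Slc5a3 form a single exon (chr16:92076720-92087473) inside an intron of Mrps6. The shared exon makes up 1.46% of the exonic bases of Slc5a3 and 10.4% of those of Mrps6. As both genes are read from the same strand, a read within the shared exon cannot be assigned to either by strand. Annotated starts in RefSeq (GRCm38.p6) are 14 bases apart, so the promoter windows of the genes, from 250 bases before to 50 after the start, have 286 bases in common.

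The stretch just before both genes is shown because a single sequence lies upstream of a transporter and a mitochondrial ribosomal protein. It is chr16:92058072-92058269, plus strand, 198 bases with 75.8% G or C, and the capitals mark GGGCGG, the core of the GC box bound by SP factors.
Slc5a3 and Mrps6 upstream: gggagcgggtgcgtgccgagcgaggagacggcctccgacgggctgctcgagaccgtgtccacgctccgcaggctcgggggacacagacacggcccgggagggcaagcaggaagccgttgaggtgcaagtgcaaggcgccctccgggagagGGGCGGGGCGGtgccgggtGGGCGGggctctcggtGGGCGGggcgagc
GGGCGG occurs 4 times in it, with the leftmost pair overlapping by a base. Windows were found in RefSeq for 5 of the 8 members, and 4 of these 5 (Slc5a3, Mrps6, Nfat5 and Slc38a2) hold GGGCGG on either strand, a motif present in 35.7% of 32851 windows and in 38.2% of 27025 genes. The windows of Slc5a3 and Mrps6 have 286 bases in common and 4 matches each, so they are not separate cases. TGGAAA, the core letters of the element that NFAT5 binds, was found on neither strand of the windows of Slc5a3, Mrps6, Nfat5 or Slc38a2. It was found once in Slc6a12, which has 5 windows, 75 bases before an annotated start, and is shown in capitals in the 30 bases of chr6:121342487-121342516, plus strand.
Slc6a12 upstream: gcaggtacttggTGGAAAactccagtctgt
Among all windows 21.4% hold TGGAAA on either strand, and 23.9% of genes have it in at least 1 window. A match of letters is not a binding site, and no match in these windows bears on elements elsewhere.

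Most of these genes were well expressed in MEFs, and the betaine transporter was not. On a scale of counts per kilobase of the principal coding transcript, scaled for library size (RPKM), the mean over the 8 libraries was 72.2 ± 9.14 (SD) for Slc38a2, 59.8 ± 25.9 for Mrps6, 51.7 ± 13.4 for Akr1b3, 45.7 ± 28.7 for Slc5a3, 45.0 ± 9.39 for Slc6a6, 32.1 ± 7.20 for Nfat5 and 16.0 ± 2.33 for Slc12a2. In each neighbouring pair of this order from Slc38a2 to Nfat5 the libraries overlapped, whereas every library of Slc12a2 (12.5 to 19.9 RPKM) lay below every library of Nfat5 (22.0 to 43.8 RPKM). Slc6a12 had a mean of 0.150 RPKM and 2, 5, 9 and 12 counts in WT and 16, 6, 4 and 12 in Dp1Tyb, too few to pass the filter on low counts, so 7 of the 8 members were tested. The order depends on the exons taken as the gene. With the union of all annotated exons, Slc5a3 was highest at 45.7 RPKM and Akr1b3, which has long annotated exons outside its principal transcript, had 8.56 RPKM.

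Mrps6 was higher in Dp1Tyb. With relative scaling (trimmed means of the endogenous genes, as CPM, the same unit without gene length) its level was 37.8, 29.7, 38.5 and 37.7 in WT 1 to 4, and 99.7, 57.4, 51.2 and 53.0 in Dp1Tyb 1 to 4. Every Dp1Tyb library lay above every WT library, and Dp1Tyb 1 lay far above the other Dp1Tyb libraries. The log2 fold change was 0.86 (SE 0.21), a fold of 1.82, and 0.59 without Dp1Tyb 1. Scaled on the spike-ins, the values were 936, 548, 573 and 920 in WT and 2508, 825, 1127 and 1455 in Dp1Tyb, and Dp1Tyb 2 fell inside the WT range. That log2 fold change was 0.99, and 0.62 without Dp1Tyb 1. The edgeR fit with spike-in scaling gave all 7 tested members nearly the same SE (0.316 to 0.322), which is not the spread of each gene. From the log2 values of Mrps6 alone the difference was 0.91 (SE 0.40). A ratio of 3 copies to 2 is 0.58 on the log2 scale, and Mrps6 lay 1.31 SE above it with relative scaling.

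Slc5a3 did not separate the genotypes. Its relative level was 521, 197, 502 and 466 CPM in WT and 1219, 263, 372 and 453 CPM in Dp1Tyb and the genotypes overlapped. Dp1Tyb 1 was higher than any WT library and the other 3 Dp1Tyb libraries lay below 3 of the 4 WT libraries. The log2 fold change of 0.45 (SE 0.47) rested on Dp1Tyb 1: without that library it was -0.21. With spike-in scaling the counts were 12910, 3633, 7475 and 11380 in WT and 30684, 3779, 8183 and 12451 in Dp1Tyb. Here the log2 fold change was 0.64, and -0.11 without Dp1Tyb 1. From the log2 values of Slc5a3 alone the spike-in scaled difference was 0.39 (SE 0.75), less than its error. In bulk cultures, a change in the share of cells that express a gene and a change in the level per cell cannot be told apart.

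**Figure D1:**
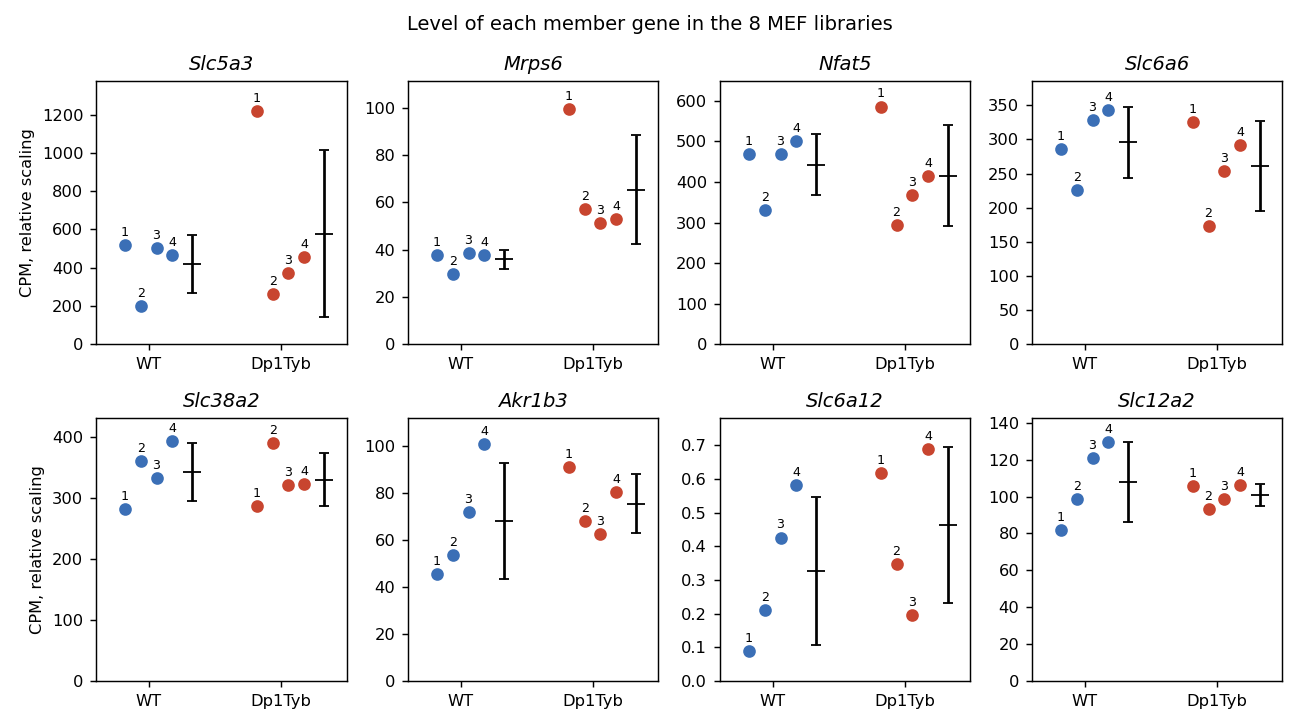
Level of each of the 8 genes in CPM with relative scaling (vertical axis, from 0, a separate scale for each gene) in the 4 WT (blue) and 4 Dp1Tyb (red) libraries, with replicate numbers as labels and black bars for mean ± SD. Mrps6 in Dp1Tyb (51.2 to 99.7 CPM) lies above WT (29.7 to 38.5 CPM), while the other 7 genes overlap between genotypes.

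The osmotic genes outside the duplication had small differences between genotypes. Nfat5 stood at 469, 332, 469 and 502 CPM in WT and at 586, 294, 368 and 415 CPM in Dp1Tyb, with a log2 fold change of -0.09 (SE 0.21). Dp1Tyb held both the highest and the lowest library. Slc6a6 had 286, 226, 328 and 344 CPM in WT against 326, 173, 253 and 291 CPM in Dp1Tyb, a log2 fold change of -0.18 (SE 0.20). Its lowest library in each genotype was replicate 2, as for Nfat5 and Slc5a3.

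Slc38a2 had 282, 361, 333 and 394 CPM in WT and 287, 390, 322 and 323 CPM in Dp1Tyb, with a log2 fold change of -0.05 (SE 0.14). Here replicate 1 was the lowest library of each genotype. Akr1b3 ranged from 45.4 to 100.9 CPM in WT, where WT 4 was highest, and from 62.6 to 90.9 CPM in Dp1Tyb, with a log2 fold change of 0.15 (SE 0.23) that was 0.01 without WT 1 and 0.41 without WT 4. Slc12a2 ranged from 81.7 to 129.8 CPM in WT and, more narrowly, from 93.3 to 106.0 CPM in Dp1Tyb, with a log2 fold change of -0.09 (SE 0.14). Of the 5 tested members outside the duplication, 4 had a lower mean in Dp1Tyb with relative scaling and 1 with spike-in scaling. Spike-in scaling moved the median change over the 16470 tested genes from 0.01 to 0.11 on the log2 scale, and that of these 5 members from -0.09 to 0.04.

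None of the 7 tested members was called at an adjusted p under 0.05 by edgeR with either scaling, nor by DESeq2, while 1 with relative scaling (Mrps6) and 2 with spike-in scaling (Mrps6 and Slc5a3) had an unadjusted p under 0.05, the latter resting on the shared SE described above. Over all tested genes edgeR called 0.0182% with relative and 0.0121% with spike-in scaling, DESeq2 called 0.392% and 0.0122%, and an unadjusted p under 0.05 was reached by 4.27% and 1.17%. Mrps6 was the only tested member in which every Dp1Tyb library lay above every WT library with relative scaling, as did 1.64% of all tested genes and 42% of the 112 tested genes of the duplicated stretch. No tested member lay below WT in the same way, compared with 1.52% of all tested genes. With spike-in scaling no tested member lay above or below, against 0.285% and 0.14% of genes. Because these genes were picked in view of this contrast, nothing is read from their counts.

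The tested genes around Slc5a3 and Mrps6 had higher means in Dp1Tyb, although edgeR called none of them. Of 37 annotated genes within 500 kb of Mrps6, 15 were in the table and tested, and all 13 besides Slc5a3 and Mrps6 had a higher mean in Dp1Tyb, with a median log2 fold change of 0.68 (relative scaling). The median over the 112 tested genes of the whole duplication was 0.54. In 6 of the 13 every Dp1Tyb library lay above every WT library, namely Gart (an enzyme of purine synthesis), Son (an RNA splicing factor), Cryzl1, Itsn1 (an endocytic scaffold), Atp5o (a subunit of ATP synthase) and Smim11. The same held for 42% of the 112 tested genes of the duplication and for 1.64% of all tested genes. None of the 13 was called at an adjusted p under 0.05 by edgeR, with the lowest adjusted p at 0.175 for Cryzl1 (log2 fold change 0.91, SE 0.15, higher in 4 of 4 Dp1Tyb libraries). An unadjusted p under 0.05 was reached by 9 of them, beside 4.27% of all tested genes. With DESeq2 and relative scaling 5 were called (Gart, Son, Cryzl1, Itsn1 and Atp5o), beside 0.392% of all tested genes. The lowest values belonged to the antisense transcripts Gm15964 (log2 fold change 0.20, SE 0.35) and Gm10785 (0.08, SE 0.28), whose counts depend on the strand setting of the counting. Rcan1, the calcineurin inhibitor 280 kb beyond Mrps6, had a log2 fold change of 0.68 (SE 0.25).

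The log2 fold change of Mrps6 was exceeded by 9 of the 112 genes and that of Slc5a3 by 64. The SE of Slc5a3 was 0.47, against 0.10 for Son, the smallest among the 15 genes, 0.40 for Dnajc28 and 0.35 for Gm15964, which had far fewer counts. Gm16310, a non-coding transcript annotated within an Mrps6 intron 7095 bases past the end of Slc5a3, had the largest SE of the 15, 0.52. It had 54, 24, 23 and 29 counts in WT and 125, 13, 33 and 32 in Dp1Tyb, so that replicate 1 was highest in each genotype, as for Slc5a3.

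**Figure D2:**
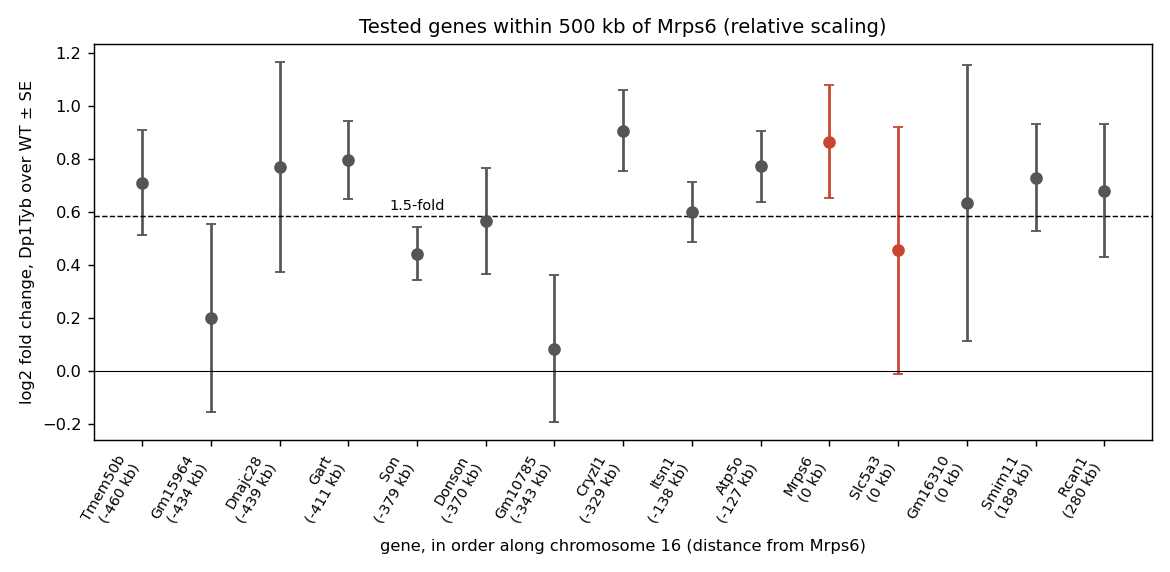
Log2 fold change of Dp1Tyb over WT with relative scaling (vertical axis, points with bars of ± 1 SE) for the 15 tested genes within 500 kb of Mrps6, in their order along the chromosome with the distance in kb; Mrps6 and Slc5a3 are red, and the dashed line marks a fold of 1.5. All 15 points lie above 0, and the SE of Slc5a3 (0.47) is larger than that of Mrps6 (0.21).

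Within a library, Slc5a3 and Mrps6 can be compared without any scaling. Mrps6 received 845, 701, 812 and 776 counts in WT and 2577, 995, 1041 and 921 in Dp1Tyb, and Slc5a3 received 13.8, 6.63, 13.0 and 12.4 counts for each Mrps6 count in WT and 12.2, 4.58, 7.26 and 8.56 in Dp1Tyb. The ratio differed between cultures of one genotype by more than 2-fold. As a share of the counts of both genes, Slc5a3 took 93.2% (95% Wilson interval 92.8 to 93.7), 86.9% (86.0 to 87.8), 92.9% (92.4 to 93.3) and 92.5% (92.0 to 93.0) in WT. In Dp1Tyb it took 92.4% (92.2 to 92.7), 82.1% (81.1 to 83.1), 87.9% (87.2 to 88.6) and 89.5% (88.9 to 90.2). These intervals cover counting error only and are narrow beside the spread of the cultures. The means were 91.4% ± 3.01 (SD, n = 4) in WT and 88.0% ± 4.36 (SD, n = 4) in Dp1Tyb, a difference of -3.39 percentage points that lay between -4.89 and -1.42 when libraries were left out one by one. The share overlapped between genotypes, and replicate 2 was lowest in each.

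**Figure D3:**
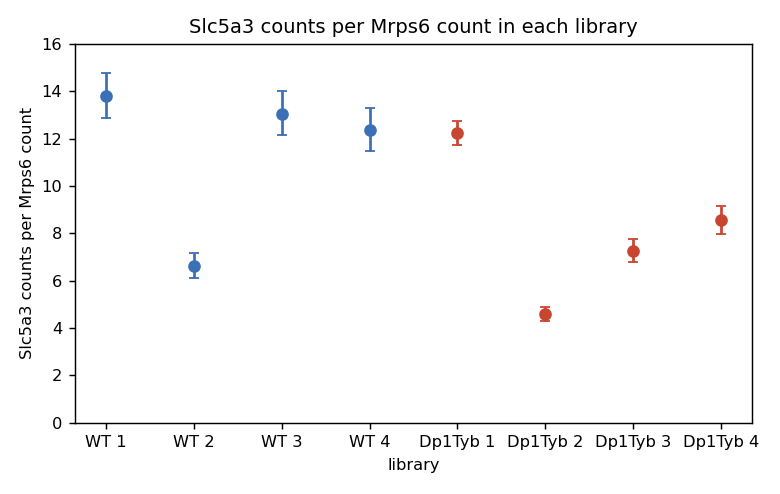
Counts of Slc5a3 for each count of Mrps6 (vertical axis, from 0) in each of the 8 libraries, WT in blue and Dp1Tyb in red, with bars for the 95% Wilson interval of the share turned into a ratio. Ratios run from 6.63 to 13.8 in WT and from 4.58 to 12.2 in Dp1Tyb, and replicate 2 is lowest in each genotype.

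The spread of Slc5a3 between cultures of the same genotype was among the widest of all genes of similar abundance. Its within-genotype SD was 0.82 on the log2 scale, higher than in 99.1% of the 561 tested genes with 0.5 to 2 times its mean count. The highest library of Slc5a3 exceeded its lowest 2.64-fold within WT and 4.64-fold within Dp1Tyb (6.19-fold across both genotypes). Only 4 of the 112 genes of the duplication had a larger SD. For Mrps6 the SD was 0.34 (higher than 85.2% of genes of like count), for Nfat5 0.35 (88.5%), for Slc6a6 0.34 (87.2%) and for Akr1b3 0.40 (90.3%). Slc38a2, at 0.20 (49.5%), and Slc12a2, at 0.22 (63.9%), varied about as much as other genes of their abundance.

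This spread was shared with Nfat5. Each library was set against the mean of its genotype, so that the genotype difference used to choose the genes drops out. Slc5a3 then deviated by 0.40, -0.998, 0.35 and 0.24 on the log2 scale in WT 1 to 4 and by 1.34, -0.87, -0.37 and -0.09 in Dp1Tyb 1 to 4. Nfat5 deviated by 0.10, -0.40, 0.10 and 0.20 and by 0.54, -0.46, -0.13 and 0.04. Replicate 2 was the lowest library of both genes in each genotype and Dp1Tyb 1 the highest. Across the 8 libraries Pearson's r was 0.98 (Spearman's rho 0.90), and 0.95 without the 2 libraries farthest from the median. The fitted slope within genotypes was 2.29 (SE 0.22) log2 units of Slc5a3 per log2 unit of Nfat5. These correlations describe 8 libraries, in which the genes compared share library and depth and 2 group means were removed. Among the members, the proliferation genes and the RNA per spike-in 35 relations were computed, besides those with marker lists, list genes and all 11001 genes given further on.

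The other NFAT5 target genes shared the pattern unevenly. Slc6a6 had r = 0.93 with Nfat5 (0.80 without the 2 farthest libraries) and r = 0.85 with Slc5a3. Mrps6 had r = 0.88 with Slc5a3, falling to 0.70 without the 2 farthest libraries, and r = 0.82 with Nfat5. Its deviations were smaller, from -0.26 to 0.11 in WT and from -0.29 to 0.67 in Dp1Tyb. Akr1b3, although a textbook NFAT5 target, had r = 0.54 with Nfat5 and moved instead with Slc12a2 (r = 0.92, 0.79 without the 2 farthest libraries). Slc38a2 ran the other way, with r = -0.65 against Slc5a3 and -0.58 against Nfat5, the latter falling to -0.23 without the 2 farthest libraries.

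**Figure D4:**
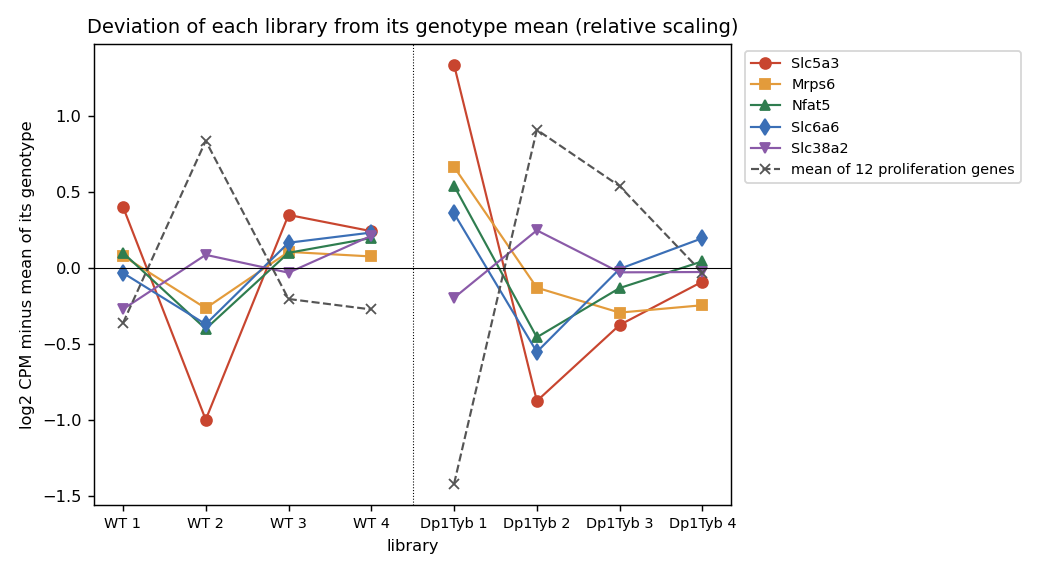
Deviation of each library from the mean of its genotype in log2 CPM (vertical axis) for 5 member genes and for the mean of 12 proliferation genes (dashed), with libraries along the horizontal axis; lines only join points of 1 gene, as replicates have no order. Slc5a3 ranges from -0.998 to 1.34 and moves with Nfat5 (-0.46 to 0.54) and against the proliferation genes.

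Genes of proliferation moved with this pattern in the opposite direction. The summed level of 12 such genes, chosen after the data had been seen (Mki67, Top2a, Cdk1, Ccnb1, Ccna2, Mcm2, Mcm3, Mcm5, Pcna, Rrm2, Aurkb and Bub1), was 900, 2111, 1032 and 1002 CPM in WT and 387, 1957, 1557 and 1022 CPM in Dp1Tyb. The libraries with the most proliferation RNA, WT 2 and Dp1Tyb 2, had the least Slc5a3 of their genotype, and Dp1Tyb 1 had the least proliferation RNA and the most Slc5a3. The correlation of the deviations was -0.99 for Slc5a3 (rho -0.95), -0.98 for Nfat5, -0.89 for Mrps6 and -0.84 for Slc6a6, but -0.46 for Akr1b3 and -0.26 for Slc12a2. Slc38a2 had 0.63. RNA recovered per spike-in moved less closely with these genes, with r = 0.49 for Slc5a3 and 0.61 for Nfat5.

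The fitted difference of Slc5a3 between genotypes varied with which of these genes was held level, a comparison chosen after the data had been seen. The mean difference in log2 CPM was 0.29 (SE 0.58). It was 0.57 (SE 0.13), a fold of 1.48, at equal Nfat5, and 0.17 (SE 0.10), a fold of 1.12, at an equal mean of the proliferation genes. Slc5a3 was already known to track both closely (r = 0.98 and -0.99), so these smaller SEs follow from that choice and test nothing. Mrps6 moved less, from 0.81 (SE 0.24) to 0.91 (SE 0.16) and 0.77 (SE 0.12). The part of proliferation and of NFAT5 activity in the level of Slc5a3 was not tested.

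**Figure D5:**
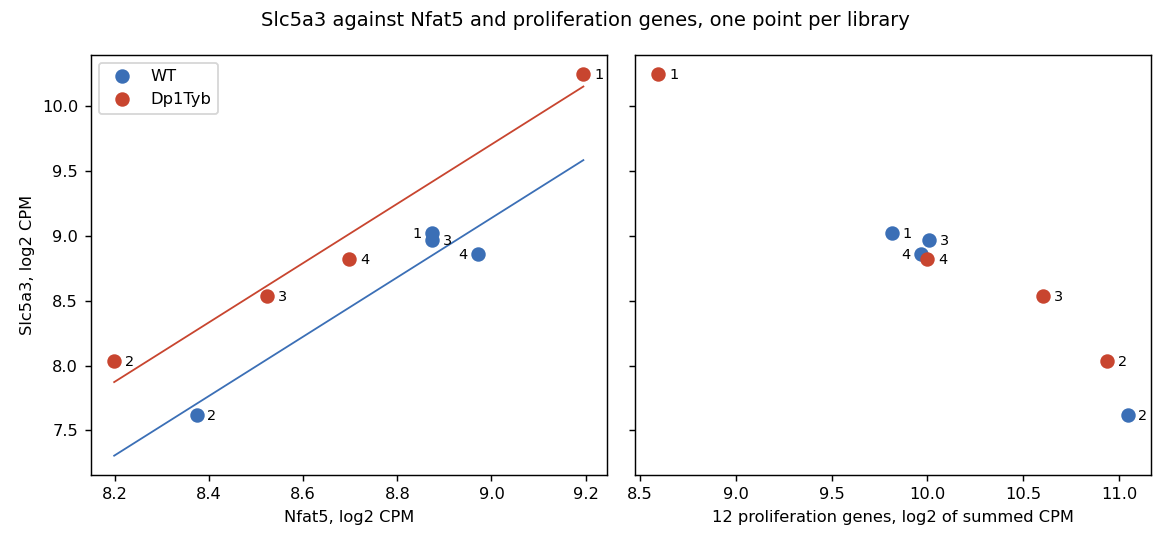
Slc5a3 in log2 CPM (vertical axes) against Nfat5 in log2 CPM (left) and against the log2 of the summed CPM of 12 proliferation genes (right), with 1 point per library numbered by replicate, WT in blue and Dp1Tyb in red; lines on the left have the common slope of 2.29 fitted within genotypes. The fitted lines stand apart by 0.57, and on the right, where no line was fitted, Slc5a3 is highest in the library with the least proliferation RNA (387 CPM).

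The pattern extended beyond the osmotic genes. Among 11001 tested genes with a mean of at least 100 counts, 546 had r over 0.9 with the deviations of Slc5a3, 4.96% of the others, and 917 had r under -0.9. The most like Slc5a3 over the 8 libraries were Cd80 (r = 0.997), a costimulatory membrane protein, Tusc2 (0.996) and Man1a (0.995), a mannosidase of the Golgi. Nfat5 was among 44 genes at or above its own r. The most like Mrps6 were Slc30a4 (0.992), a zinc transporter, Bnip3l (0.991), a mitophagy receptor, and Eif1b (0.989), and 263 genes had r over 0.9 with it.

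The markers of cell types gave the following values. All 11 fibroblast markers were in the table, with a summed 23190 to 32458 CPM in WT and 26840 to 32312 CPM in Dp1Tyb. All 6 leukocyte markers were present, at 255 to 348 CPM in WT and 142 to 287 CPM in Dp1Tyb, and 4 of 5 endothelial markers, at 32.96 to 56.1 and 31.6 to 78.7 CPM. Muscle markers (2 of 5, without Myod1, Myf5 and Pax7) stood at 5.73 to 24.5 and 3.33 to 30.6 CPM, all 4 epithelial markers at 4.47 to 14.8 and 3.09 to 11.3 CPM, and all 4 neural markers at 45.3 to 51.3 and 33.5 to 53.9 CPM. Every list overlapped between genotypes. Within genotypes their log2 sums had r with Slc5a3 of -0.81 (fibroblast), 0.69 (leukocyte), 0.86 (endothelial), -0.97 (muscle), -0.92 (epithelial) and -0.85 (neural), and their part in its level was not tested.

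Further genes of osmotic balance were taken from 5 lists covering osmolyte transport, osmolyte synthesis, ion transport, kinases of cell volume and NFAT5 targets with chaperones. Of 78 such genes, 71 were in the table and 69 were tested. None was called at an adjusted p under 0.05 by edgeR or DESeq2 with either scaling, beside 0.0121% to 0.392% of all tested genes. In edgeR 3 had an unadjusted p under 0.05 with relative and 0 with spike-in scaling, beside 4.27% and 1.17% of all tested genes. The median log2 fold change was 0.06 with relative scaling (all tested genes 0.01) and 0.17 with spike-in scaling (0.11). In no list gene did the genotypes stand apart in every library. Of all tested genes, 1.64% stood apart with Dp1Tyb above WT and 1.52% with Dp1Tyb below (relative scaling).

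Among 11 tested osmolyte transporters 5 had a higher and 6 a lower mean in Dp1Tyb with relative scaling, but 8 a higher and 3 a lower mean with spike-in scaling. The values that follow are with relative scaling. The most abundant were the choline transporters Slc44a2 (log2 fold change 0.38, SE 0.19) and Slc44a1 (-0.09, SE 0.14) and the amino acid transporter Slc38a1 (0.06, SE 0.13). The widest difference was that of Slc6a20b, a transporter of proline and related amino acids, with 2.82 to 5.50 CPM in WT and 1.73 to 3.69 CPM in Dp1Tyb (-0.58, SE 0.29). Of 14 tested genes of osmolyte synthesis 10 had a higher mean (12 with spike-in scaling). Sord, which turns sorbitol into fructose, had 23.7 to 39.4 CPM in WT and 22.2 to 25.02 CPM in Dp1Tyb (log2 fold change -0.37, SE 0.15, edgeR adjusted p = 0.999). Impa1, which releases myo-inositol from its phosphate, had 0.16 (SE 0.11), Cdo1, an enzyme on the way to taurine, 0.20 (SE 0.25), Aldh7a1, which can make betaine, 0.07 (SE 0.09), and Akr1b8, a relative of aldose reductase, 0.12 (SE 0.17).

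Log2 fold changes lay between -0.56 and 0.51 in the genes of ion and water transport and between -0.38 and 0.17 in the kinases. The sodium pump subunit Atp1b3 (log2 fold change 0.10, SE 0.12) and the scramblase Ano6 (0.09, SE 0.11) were among the most abundant of 22 tested genes of ion and water transport. Aqp5, a water channel, had 7.95 to 12.9 CPM in WT and 12.7 to 15.8 CPM in Dp1Tyb (0.51, SE 0.17, adjusted p = 0.999). The potassium chloride cotransporter Slc12a4 had 0.15 (SE 0.09) and Slc12a8 -0.56 (SE 0.29). Of 13 kinases 10 had a higher mean (11 with spike-in scaling), and Wnk1, a chloride-sensing kinase upstream of SLC12A2, had 0.05 (SE 0.15), its partner Stk39 0.17 (SE 0.14), Sgk1 -0.31 (SE 0.26), Map2k3 0.07 (SE 0.12) and Map3k5 -0.38 (SE 0.17). Among 9 NFAT5 targets and chaperones, S100a4 had 0.17 (SE 0.17), the chaperone Hsph1 0.12 (SE 0.16), the urea transporter Slc14a2 -0.62 (SE 0.48) and the chemokine Ccl2 0.46 (SE 0.18, adjusted p = 0.999), from 59.0 to 73.2 CPM in WT and from 65.3 to 128.3 CPM in Dp1Tyb.

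Some of these genes followed the culture pattern of Slc5a3. Of the 57 list genes with a mean of at least 100 counts, 6 (10.5%) had r over 0.9 with it and 4 (7.02%) r under -0.9, beside 4.96% and 8.34% of all such genes. The genes named next were chosen after their values had been seen. Those above 0.9 included Slc12a9 (0.92), of the cation chloride cotransporter family, the anion exchanger Slc4a2 (0.93), the channel kinase Trpm7 (0.92) and the chaperones Hspa1a (0.94) and Hspa1b (0.97), near-identical copies whose counts are uncertain as reads with several alignments were discarded. Without the 2 farthest libraries r was 0.78 for Slc12a9, 0.89 for Slc4a2, 0.79 for Trpm7 and 0.93 for both chaperones. Below -0.9 were Slc7a11 (-0.98), the cystine transporter, Slc44a2 (-0.98), Ado (-0.92), an enzyme of taurine synthesis, and Isyna1 (-0.95), which makes inositol phosphate from glucose phosphate. With the 2 farthest libraries left out, r was -0.95 for Slc7a11, -0.93 for Slc44a2 and -0.83 for Ado. Isyna1 had 12.02, 15.7, 11.4 and 11.7 CPM in WT and 9.90, 16.8, 15.9 and 16.9 CPM in Dp1Tyb, and its r was -0.83 without the 2 farthest libraries. Impa1, which also yields myo-inositol, had r = 0.11 with Slc5a3. Among list genes of this abundance, the median r with Slc5a3 was -0.79 for 10 osmolyte transporters and 0.07 for 12 synthesis genes. It was 0.46 for 18 genes of ion and water transport, 0.32 for 10 kinases and 0.68 for 7 NFAT5 targets and chaperones. For all genes of this abundance it was -0.03.

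Mrps6 was compared with the other proteins of the mitochondrial small ribosomal subunit, which are encoded outside the duplication. All 30 listed genes were tested, and none was called by edgeR or DESeq2 with either scaling, beside 0.0121% to 0.392% of all tested genes. With relative scaling 29 of 30 had a higher mean in Dp1Tyb, with log2 fold changes from -0.07 to 0.33 and a median of 0.15 beside 0.01 for all tested genes, and with spike-in scaling all 30 had a higher mean, with a median of 0.26 beside 0.11. None had an unadjusted p under 0.05 in edgeR, beside 4.27% of all tested genes with relative and 1.17% with spike-in scaling. None stood apart between genotypes in every library, beside 1.64% (Dp1Tyb above WT) and 1.52% (below) of all tested genes with relative scaling. The log2 fold changes were 0.27 (SE 0.12) for Mrps10, 0.25 (SE 0.13) for Chchd1, 0.25 (SE 0.12) for Mrps23, 0.23 (SE 0.11) for Aurkaip1, 0.14 (SE 0.12) for Mrps15 and 0.14 (SE 0.19) for Mrps21, the most abundant. Mrps6, at 0.86, lay above the highest of them. Of the 29 with a mean of at least 100 counts, 1 (3.45%), Mrps21, had r over 0.9 with the deviations of Slc5a3 (0.70 without the 2 farthest libraries), beside 4.96% of all such genes, and the median r was 0.08.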

How the data were processed

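Groups and replicate numbers came from the sample labels. Per the labels and methods, the authors trimmed adapters with Trim Galore, aligned reads to GRCm38 plus the spike-in sequences with TopHat2 2.0.12, discarded reads with several alignments and used htseq-count for gene counts. Neither the annotation release nor the strand setting is given in the sources used here. In its default mode htseq-count leaves out a read that fits overlapping genes equally, which would affect the exon shared by Slc5a3 and Mrps6. GENCODE M21 also has Gm49711, a protein-coding gene on the same strand that is absent from the count table. It shares 159 exonic bases with Slc5a3 and 305 with Mrps6, and whether the authors' annotation held it is not known. The deposited table holds raw counts, with no normalisation. A deposited table of scaled counts and a table of the authors' own comparison (fold changes and p-values) were not used.

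Filtering (filterByExpr) kept 16470 genes. edgeR 4.0.16 (R 4.3.3) fitted Dp1Tyb against WT with its quasi-likelihood test over all of them, with Benjamini-Hochberg adjustment. Libraries were scaled on the median ratio of 63 spike-ins (spike-in scaling) or on TMM factors of endogenous genes (relative scaling). DESeq2 1.42.0 was an alternative. Log values used a pseudocount of 0.5 counts. RPKM was computed from these counts with GENCODE M21 lengths, and 19318 of the 19493 genes matched that release by identifier. Sequences came from RefSeq (GRCm38.p6). The scripts were tested on simulated data.

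The members and gene lists were chosen with earlier results of these data known. Named list genes were the 3 most abundant and the 3 with the smallest p of each list, neighbours were all tested genes within 500 kb of Mrps6, and like genes were the 3 with the highest r. Some genes that met these rules are not reported here. Replicates differed by more than counting noise (chi-square per degree of freedom 14.5 to 140). The methods describe MEFs from littermate embryos of both genotypes, but neither they nor the labels tie a library to an embryo, so p-values measure the spread between these samples. For edgeR with spike-in scaling, where the tested members had nearly the same SE, they do not measure the spread of each gene.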

Additional observations from a re-analysis of the deposited data

Results flagged for a closer look

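In 5 of 32 sets of 4 libraries of 1 genotype, a library stood apart from the other 3. This was measured on log2 values as its gap to the nearest library divided by the range of the set (critical value 0.829). Chance sets a library apart in about 1 of 20 such sets, and the sets here share libraries. With relative scaling WT 2 was low for Slc5a3 (ratio 0.885), Mrps6 (0.918) and Nfat5 (0.837). Dp1Tyb 1 was high for Mrps6 (0.829, barely past the critical value). With spike-in scaling WT 4 was high for Akr1b3 (0.86). WT 2 also had the highest summed level of the 12 proliferation genes (2111 CPM) and Dp1Tyb 1 the lowest (387 CPM), and their part in these values was not tested.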

How the results depend on the processing

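In every alternative run the members called stayed at 0 of 7. The counts stayed at 0 for the osmotic lists with both scalings and for the mitochondrial ribosomal list with relative scaling, where alternatives were run. Genes called over the whole table went from 2 with spike-in scaling to 0 when 10 counts were required in every library and to 9 with a replicate block. Leaving out a library gave 2 to 8 calls (8 without Dp1Tyb 2, 6 without Dp1Tyb 4, 6 without WT 1 and 4 without Dp1Tyb 1). With relative scaling the 3 calls became 52 with DESeq2, 0 with 10 counts in every library, 7 with the replicate block, 1 at an adjusted p under 0.01 and 1 without any single library. The cause was not tested. Deviations of libraries with the same number correlated at 0.32, 0.62, -0.08 and 0.45, and WT 1, 2 and 4 correlated best with the Dp1Tyb library of their own number but WT 3 with Dp1Tyb 4 (0.41). As the labels give no shared litter or day and 1 pair was not above 0.1, the samples were not treated as paired, although the values hint at a link for the other 3 numbers. Set against the WT library of the same number, the Slc5a3 share was lower in 4 of 4 Dp1Tyb libraries (differences of -4.98 to -0.796 percentage points). That is a description only, as the numbers are not known to link samples. Without pairing, the shares overlapped between genotypes. Under the replicate block the log2 fold change was 0.29 for Slc5a3 and 0.81 for Mrps6 with relative scaling.

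Leaving out libraries gave -0.21 to 0.69 for Slc5a3 and 0.59 to 0.97 for Mrps6 with relative scaling, and -0.11 to 0.96 and 0.62 to 1.2 with spike-in scaling. The sign of Slc5a3 thus changed without Dp1Tyb 1, and that of Mrps6 in none. Akr1b3 ranged from 0.01 without WT 1 to 0.41 without WT 4 with relative scaling, and from 0.12 without Dp1Tyb 1 to 0.69 without WT 4 with spike-in scaling. Signs of Nfat5, Slc38a2 and Slc12a2 changed under at least 1 alternative with each scaling. Slc6a6 changed sign only with spike-in scaling. Low counts limit Slc6a12, with at most 16 in a library.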
